A study of Homo sapiens with 8 samples.

Results

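The ATF4 amino acid and ER stress response was followed in SKBR3, a human HER2-amplified breast cancer cell line that is generally regarded as negative for the classical estrogen receptor. The 34 genes were chosen by name, as well-known members of the response, from 19775 genes measured, and all 34 were measured, by 71 probe sets. They and the related lists were chosen with earlier results of these data known. Shares of listed genes set beside those of all genes therefore describe the lists and test nothing. The 34 genes were split into 22 genes of the ATF4 group and 12 of the ER group (ER chaperones and targets of XBP1 and ATF6). There were 8 arrays, 1 per condition. Before the 3 h treatments all cells spent 4 h in 10% charcoal-stripped serum, which is poor in steroids. The conditions were estradiol (1e-06 M), ethanol (0.1%, the vehicle of estradiol), E2-BSA (estradiol coupled to albumin, 1e-06 M) with ICI (1e-05 M), E2-BSA (1e-06 M) with G15 (1e-05 M), E2-BSA alone (1e-06 M), G15 alone (1e-05 M), the carrier BSA (1e-06 M) and untreated cells. G15 is an antagonist of the membrane estrogen receptor GPER, and ICI is given in the labels only by this abbreviation. The labels do not say whether the estradiol and G15 arrays held ethanol.

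When eukaryotic initiation factor 2 is phosphorylated, by kinases that sense a lack of amino acids, misfolded protein in the ER, heme shortage or viral RNA, most translation slows while that of ATF4 rises. ATF4 then switches on genes of amino acid uptake and synthesis, further transcription factors such as DDIT3 (CHOP), and feedback genes that reopen translation. Misfolded protein in the ER also activates ERN1 (IRE1), which splices XBP1, and ATF6, and these raise the ER chaperones and the machinery that degrades ER proteins. The arrays read transcript levels only, so neither the translation of ATF4 nor the splicing of XBP1 was measured.

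The stretches below are shown because they hold the elements through which ATF4, ATF6 and XBP1 are known to act. Promoters of 300 bases, 250 before and 50 after each start site, came from RefSeq (GRCh38.p14). They were given for 18 ATF4 group and all 12 ER group genes, and SHMT2, ALDH1L2, SLC7A11 and NUPR1 had none. Both strands were searched for TGATGNAA, the core of the composite CEBP-ATF element that ATF4 binds. It stood in 4 of 18 ATF4 group genes (CHAC1, ASNS, SLC3A2 and SLC7A1), in 1 of 12 ER group genes (HERPUD1) and in 4.46% of all 27305 genes with a promoter. The ER stress element, CCAAT and CCACG with 9 bases of any kind between them, stood in 4 of 12 ER group genes (XBP1, HSPA5, HSP90B1 and CALR), in 0 of 18 ATF4 group genes and in 0.0916% of all genes. ER stress element II, ATTGG and CCACG with 1 base of any kind between them, stood in 2 of 12 ER group genes (HERPUD1 and SDF2L1), in 0 of 18 ATF4 group genes and in 0.0696% of all genes. TGACGTGG, an element of the type XBP1 and ATF6 bind, stood in 0 members of either group and in 0.927% of all genes. No matches in the members overlapped each other. A match is a description of letters and not a measured site. Printed 5′ to 3′ on the strand of the gene, with the motif in capitals, the stretches that lie before the start site are as follows.
CHAC1, composite element, chr15:40953242-40953289, plus strand: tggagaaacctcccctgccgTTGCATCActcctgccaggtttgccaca
ASNS, composite element, chr7:97872449-97872496, minus strand: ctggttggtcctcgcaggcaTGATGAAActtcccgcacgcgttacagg
HERPUD1, composite element, chr16:56931946-56931993, plus strand: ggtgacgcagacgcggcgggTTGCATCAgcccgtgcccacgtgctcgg
HERPUD1, ER stress element II, chr16:56932005-56932055, plus strand: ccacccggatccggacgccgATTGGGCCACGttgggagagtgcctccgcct
SDF2L1, ER stress element II, chr22:21642094-21642144, plus strand: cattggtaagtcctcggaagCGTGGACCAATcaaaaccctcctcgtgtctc
HSPA5, ER stress element, chr9:125241371-125241429, minus strand: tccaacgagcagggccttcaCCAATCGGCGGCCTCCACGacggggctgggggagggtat
HSP90B1, ER stress element, chr12:103930196-103930254, plus strand: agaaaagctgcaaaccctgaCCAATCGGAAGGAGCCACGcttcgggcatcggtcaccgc
HSP90B1, ER stress element, chr12:103930301-103930359, plus strand: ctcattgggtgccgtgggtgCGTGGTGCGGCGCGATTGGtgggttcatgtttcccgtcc
XBP1, ER stress element, chr22:28800583-28800641, minus strand: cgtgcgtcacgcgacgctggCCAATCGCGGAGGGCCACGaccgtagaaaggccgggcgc
CALR, ER stress element, chr19:12938364-12938422, plus strand: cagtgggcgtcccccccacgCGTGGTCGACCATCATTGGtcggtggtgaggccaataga
Capitals that begin with TTG or CGTGG are the element read on the opposite strand.

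Values below are the deposited ones, averaged over the probe sets of a gene. They are centred near 0 for each probe set, so the absolute level of a gene is removed, and a gene cannot be called expressed or silent from them. They were read as log2 values. No source used here states the log base, and with natural logs every fold would be larger. A difference is the value on 1 array minus that on another, and 2-fold is a difference of 1. No condition was repeated, so no difference has a replicate check, a test or a p-value. In whole cultures, fewer cells with a transcript and less of it per cell cannot be told apart. As a yardstick for differences between arrays, BSA minus untreated, a pair without hormone or antagonist, had an SD of 0.166 over all genes. Its largest difference among the 34 genes was 0.30 in size. BSA is itself a treatment, so this is not the scatter of repeated arrays. Of 22 members with several probe sets, 8 to 12 held probe sets of opposite sign, depending on the comparison. The deposited values carry no level, so the cell line could not be checked by its markers. ERBB2, GRB7, KRT8, KRT18, KRT19 and EPCAM, which mark this line, differed by less than 1.5-fold in all 11 comparisons made here, as did 5 immune cell and 8 fibroblast and endothelial markers.

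Ethanol, the vehicle, was compared with untreated cells. With 1 array each, an effect of ethanol and a trait of the ethanol array cannot be told apart. A part of the ATF4 group was high on the ethanol array and the ER chaperones were not. At 2-fold, 6 of 22 ATF4 group genes were higher (27.3%) and 0 lower, and 0 of 12 ER group genes were higher, beside 0.87% higher and 0.0152% lower of all genes. The median difference was 0.31 in the ATF4 group and -0.048 in the ER group, where all genes had -0.028. Of the ATF4 group 18 of 22 genes were above 0 and of the ER group 7 of 12 below, beside 42.1% above and 56% below of all genes. The ethanol array held the highest of the 8 values for 12 of 22 ATF4 group and 2 of 12 ER group genes, beside 19.5% of all genes, and the lowest for 2 in each group, beside 26.4%. With the BSA array in place of the untreated one, the counts were again 6 and 0 and the medians 0.34 and 0.021. The array as a whole stood apart, with 172 genes higher and 3 lower at 2-fold, and the part of this in the members' differences was not tested. With quantile normalization between arrays, 1 of the 6 genes, PPP1R15A, remained at 2-fold (1.09), and the group median was 0.15.

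**Figure D1:**
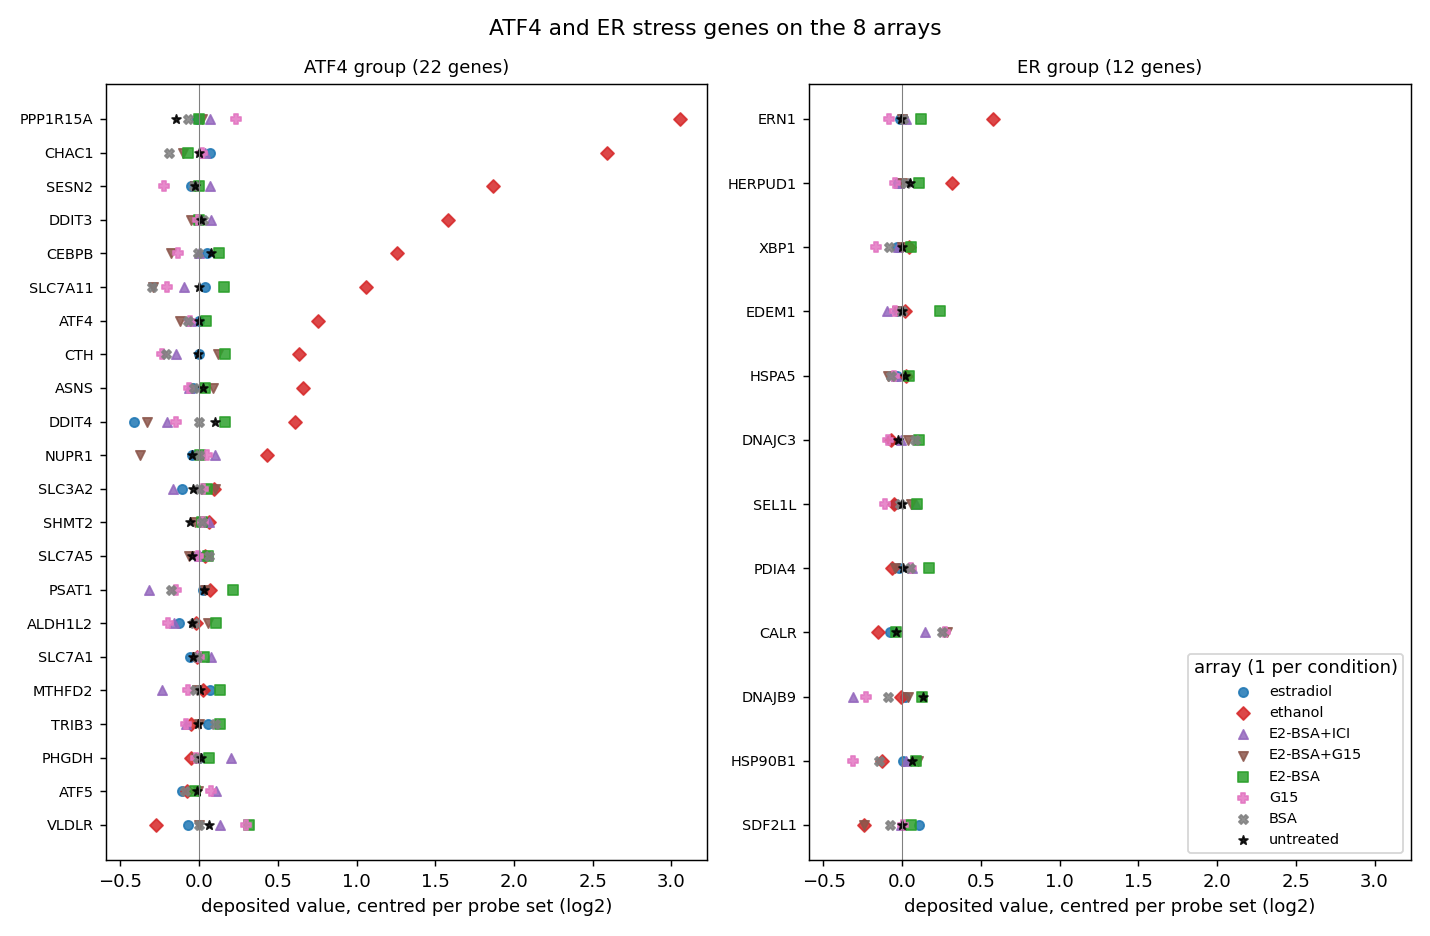
Deposited values (log2, centred per probe set) of the 22 ATF4 group genes (left) and 12 ER group genes (right) on the 8 arrays, 1 array per condition, with genes ordered by ethanol minus untreated. The ethanol array stands at 3.06 for PPP1R15A and 2.59 for CHAC1, where the other 7 arrays lie between -0.15 and 0.23 and between -0.19 and 0.070.

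The feedback and effector genes led. PPP1R15A (GADD34), which recruits a phosphatase that reverses the phosphorylation of initiation factor 2, stood at 3.06 with ethanol, -0.014 with estradiol, 0.067 with E2-BSA plus ICI, 0.018 with E2-BSA plus G15, 0.00 with E2-BSA, 0.23 with G15, -0.070 with BSA and -0.15 untreated. Ethanol alone was high, and ethanol minus untreated was 3.20 (9.21-fold), the 11th highest of all 19775 genes, with its 2 probe sets at 3.29 and 3.11. CHAC1, which breaks down glutathione, stood at 2.59 with ethanol, 0.070 with estradiol, 0.037 with E2-BSA plus ICI, -0.100 with E2-BSA plus G15, -0.074 with E2-BSA, 0.018 with G15, -0.19 with BSA and 0.00 untreated. It was 6.01-fold higher with ethanol than untreated, at rank 21. SESN2, a leucine-sensing inhibitor of the growth kinase complex mTORC1, stood at 1.87 with ethanol, -0.054 with estradiol, 0.068 with E2-BSA plus ICI, -0.023 with E2-BSA plus G15, 0.00 with E2-BSA, -0.22 with G15, -0.030 with BSA and -0.025 untreated. Its difference was 1.89 (3.71-fold), and no other array came near.

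DDIT4 (REDD1), another inhibitor of mTORC1, was less clear. It stood at 0.61 with ethanol, -0.42 with estradiol, -0.20 with E2-BSA plus ICI, -0.33 with E2-BSA plus G15, 0.16 with E2-BSA, -0.15 with G15, 0.00 with BSA and 0.10 untreated. Its range over the 7 arrays other than ethanol, 0.58, was the widest of the 34 genes. VLDLR, a lipoprotein receptor that ATF4 is known to raise, went against the others, at -0.28 with ethanol and 0.063 untreated, a difference of -0.34. It was the lowest of the 34 differences.

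The transcription factors were split. DDIT3 (CHOP) stood at 1.58 with ethanol, -0.013 with estradiol, 0.076 with E2-BSA plus ICI, -0.053 with E2-BSA plus G15, 0.00 with E2-BSA, -0.0043 with G15, 0.027 with BSA and 0.012 untreated. Ethanol alone was high, by 1.57 (2.96-fold) over untreated. CEBPB, a partner of ATF4 on the composite element, stood at 1.26 with ethanol, 0.050 with estradiol, 0.00 with E2-BSA plus ICI, -0.18 with E2-BSA plus G15, 0.12 with E2-BSA, -0.13 with G15, -0.0077 with BSA and 0.078 untreated, so that ethanol minus untreated was 1.18. ATF4 itself stood at 0.76 with ethanol, 0.00 with estradiol, -0.049 with E2-BSA plus ICI, -0.12 with E2-BSA plus G15, 0.045 with E2-BSA, -0.059 with G15, -0.073 with BSA and 0.00 untreated. The ATF4 transcript was thus 1.69-fold higher with ethanol than untreated, below 2-fold.

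NUPR1, a small stress-induced nuclear protein, was higher by 0.48 with ethanol. TRIB3, a pseudokinase that restrains ATF4 and CHOP and is one of their textbook targets, differed by -0.047, and its 2 probe sets by -0.0032 and -0.091. ATF5, a relative of ATF4, differed by -0.067, with 4 probe sets between -0.49 and 0.37. The values of TRIB3 on the other 7 arrays lay between -0.086 and 0.13, and the ethanol array stood within that range at -0.055.

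The metabolic genes differed among themselves. Both enzymes of asparagine and cysteine synthesis were higher with ethanol: ASNS, asparagine synthetase, by 0.64 and CTH, cystathionine gamma-lyase, by 0.64. The 5 enzymes of serine synthesis and the one-carbon cycle lay nearer to 0. Their differences ran from 0.12 for SHMT2, the mitochondrial serine hydroxymethyltransferase, to -0.061 for PHGDH, the first enzyme of serine synthesis. The serine and one-carbon median was 0.030, near the -0.028 of all genes. At 1.5-fold, 9 of 22 ATF4 group genes and 1 of 12 ER group genes were higher, beside 2.98% of all genes, and 0 members were lower, beside 0.723%. CTH and ASNS stood among the 9.

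Of the amino acid transporters only SLC7A11, the cystine carrier, was at 2-fold. It stood at 1.06 with ethanol, 0.036 with estradiol, -0.094 with E2-BSA plus ICI, -0.30 with E2-BSA plus G15, 0.16 with E2-BSA, -0.21 with G15, -0.30 with BSA and 0.00 untreated. Its 3 probe sets disagreed: ethanol minus untreated was 1.70 and 1.61 in 2 of them and -0.14 in the third. SLC3A2, the heavy chain that SLC7A11 and SLC7A5 need at the cell surface, differed by 0.14. SLC7A5, the leucine carrier, differed by 0.086 and SLC7A1, a carrier of cationic amino acids, by 0.025.

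**Figure D2:**
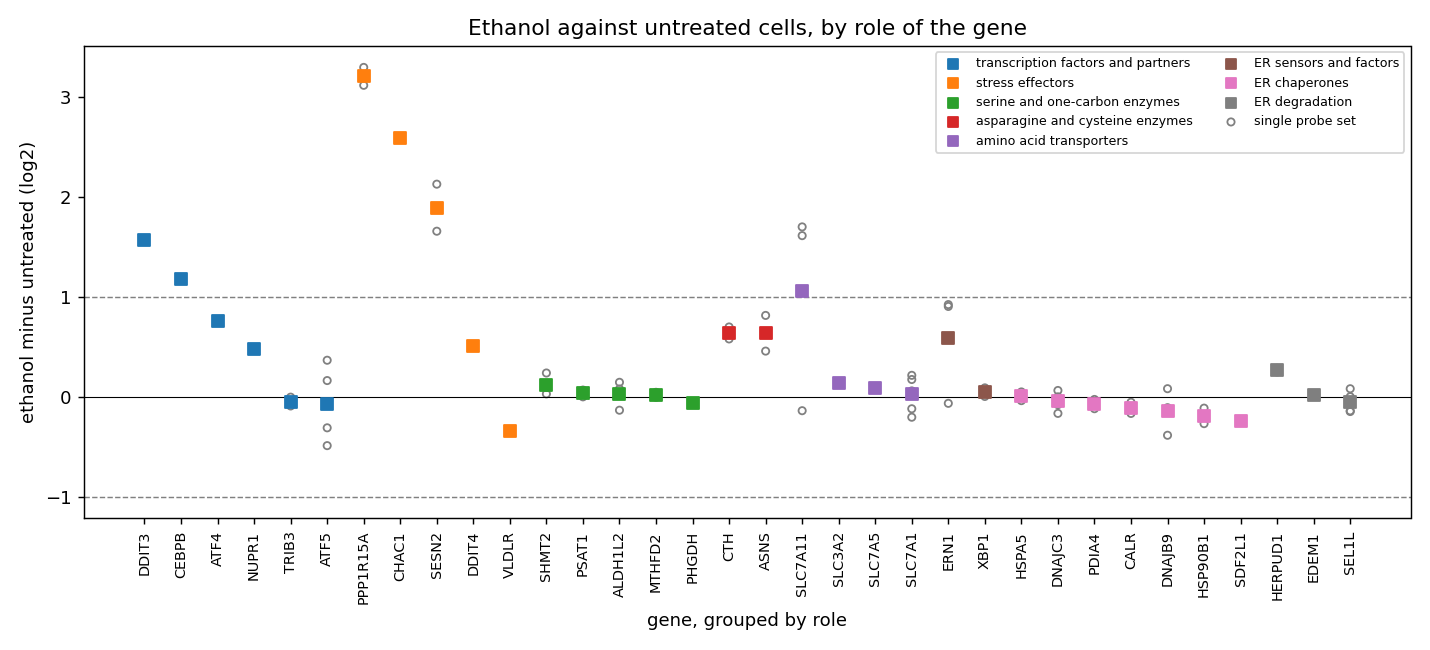
Ethanol minus untreated (log2) for the 34 genes, grouped by role. Squares are the mean over probe sets, open circles single probe sets, and dashed lines 2-fold. The stress effectors reach 3.20, the 7 ER chaperones lie between -0.24 and 0.0055, and SLC7A11 and ERN1 each have 1 probe set apart from the other 2.

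The ER group showed no such shift. HSPA5 (BiP), the main chaperone of the ER, stood at 0.025 with ethanol, -0.031 with estradiol, -0.040 with E2-BSA plus ICI, -0.091 with E2-BSA plus G15, 0.042 with E2-BSA, -0.053 with G15, -0.068 with BSA and 0.019 untreated. All 8 values lie within a range of 0.13, and ethanol minus untreated was 0.0055. XBP1 stood at 0.045 with ethanol, -0.030 with estradiol, -0.026 with E2-BSA plus ICI, -0.0040 with E2-BSA plus G15, 0.055 with E2-BSA, -0.17 with G15, -0.082 with BSA and -0.0019 untreated. Its difference of 0.047 was smaller than the SD of BSA minus untreated over all genes, 0.166. Of the 7 chaperones and cochaperones, 6 were below 0 on ethanol minus untreated, beside 56% of all genes, the lowest being SDF2L1, a cofactor of BiP, at -0.24.

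ERN1, the sensor that splices XBP1, was the highest of the ER group with ethanol. It differed from untreated by 0.59, with 2 of 3 probe sets at 0.92 and 0.90 and the third at -0.065. HERPUD1, which helps degrade ER proteins and holds both kinds of element in its promoter, differed by 0.27. EDEM1 and SEL1L, also of ER degradation, differed by 0.020 and -0.051. SDF2L1, HSPA5, XBP1, HSP90B1 and CALR, whose promoters hold an ER stress element and no composite element, had differences of -0.24, 0.0055, 0.047, -0.19 and -0.11. Of the 4 ATF4 group genes with a composite element, CHAC1 (2.59) and ASNS (0.64, below 2-fold) were higher with ethanol. SLC3A2 (0.14) and SLC7A1 (0.025) differed little. PPP1R15A (3.20), SESN2 (1.89), DDIT3 (1.57) and CEBPB (1.18) were at 2-fold, and their promoters held no composite element.

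Lists of related genes were read on the same difference, ethanol minus untreated. Of all genes, 0.87% were higher and 0.0152% lower at 2-fold, and their median was -0.028. Of 20 measured other ATF4-linked genes, 3 were higher at 2-fold and 0 lower, with a median of 0.18. They were ATF3, a stress-induced factor of the ATF family, at 1.97, CEBPD at 1.70, and TNFRSF10B, a death receptor that CHOP raises, at 1.04. The 17 cytosolic aminoacyl-tRNA synthetases, many of them ATF4 targets, had a median of 0.047 with 0 at 2-fold, from YARS1 at 0.73 to RARS1 at -0.069. A list of 11 genes held initiation factor 2, its kinases, its exchange factor and PPP1R15B, a relative of PPP1R15A. Its median was -0.030, from PPP1R15B at 0.39 to EIF2AK4 at -0.27. The 28 other ER folding and degradation genes had a median of -0.0041 with 0 at 2-fold, from ERO1B at 0.43 to OS9 at -0.20, and ATF6 and its proteases (4 genes) one of -0.11. The 11 heat shock genes, another class of stress genes, cytosolic but for the mitochondrial HSPD1 and HSPE1, stood at a median of -0.084, between BAG3 at 0.27 and HSPA4L at -0.18.

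Estradiol was compared with ethanol, its vehicle, and with untreated cells. At 2-fold, estradiol was lower than ethanol for 7 of 22 ATF4 group genes (31.8%) and for 0 of 12 in the ER group, and higher for none, beside 0.865% lower and 0.0101% higher of all genes. The 7 were PPP1R15A (-3.07), CHAC1 (-2.52), SESN2 (-1.92), DDIT3 (-1.59), CEBPB (-1.21), DDIT4 (-1.02) and SLC7A11 (-1.02). With quantile normalization between arrays 0 of the 7 remained at 2-fold, and PPP1R15A differed by -0.92. At 1.5-fold, 10 of 22 and 1 of 12 were lower, beside 2.84% of all genes. This comparison shares the ethanol array with the one above, so its values mostly restate the height of that array. Against untreated cells, 0 of the 34 genes reached 1.5-fold with estradiol, beside 0.086% higher and 0.091% lower of all genes. The medians were -0.0075 in the ATF4 group and -0.038 in the ER group.

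DDIT4 was low with estradiol, and not there alone. Its difference was -0.52 from the untreated array and -0.42 from BSA, and the estradiol array held its lowest value of all 8. It was the only one of the 34 genes whose estradiol minus untreated difference was larger than 0.30 in size, beside 1.85% of all genes that were lower by as much. Relative to untreated, DDIT4 also differed by -0.43 with E2-BSA plus G15 and by -0.30 with E2-BSA plus ICI. DDIT4 rests on 1 probe set, as do ATF4 and, among the genes at 2-fold with ethanol, CHAC1, DDIT3 and CEBPB. VLDLR (-0.13) and DNAJB9, a cochaperone of BiP (-0.11), were the next lowest, and PPP1R15A (0.13), SDF2L1 (0.11) and SHMT2 (0.090) the highest. Of the 12 ER group genes, 11 were below 0, beside 49.4% of all genes. None of them lay below -0.12, where the SD of BSA minus untreated over all genes was 0.166.

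The arrays other than ethanol differed little among themselves. Over those 7 arrays 0 of 34 genes had a range of 1.5-fold or more, where 6.09% of all genes did. The median range was 0.28 in the ATF4 group and 0.22 in the ER group, and 0.28 over all genes. PPP1R15A, CHAC1 and DDIT3, far apart with ethanol, had ranges of 0.38, 0.26 and 0.13 over the 7 arrays.

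**Figure D3:**
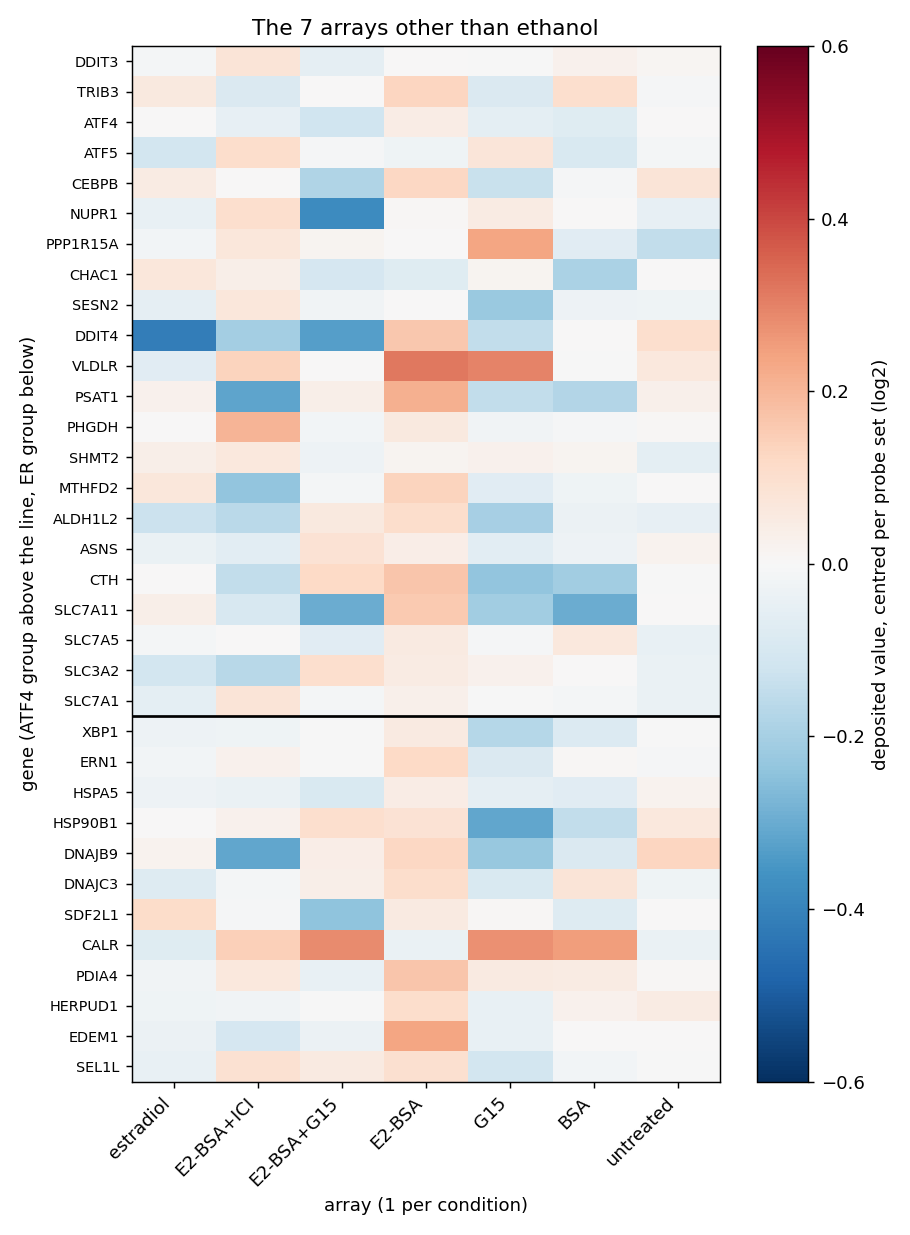
Deposited values (log2, centred per probe set; colour scale from -0.6 to 0.6) of the 34 genes on the 7 arrays other than ethanol. The E2-BSA column is mostly above 0, with EDEM1 at 0.24 and PSAT1 at 0.22, and DDIT4 is lowest with estradiol, at -0.42.

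BSA, the carrier, was compared with untreated cells, 1 array each. None of the 34 genes reached 1.5-fold, beside 0.354% higher and 0.202% lower of all genes. The medians were -0.023 in the ATF4 group and -0.019 in the ER group, and 14 of 34 genes were above 0, beside 48.1% of all genes. The lowest were SLC7A11 (-0.30), DNAJB9 (-0.22) and HSP90B1, the ER member of the HSP90 family (-0.22). With 2 further probe sets that name HSP90B1 beside MIR3652, at -1.12 and -0.11, HSP90B1 differed by -0.41 and was the lowest, past the 0.30 given above as the largest difference. The highest were CALR, a calcium-binding chaperone of glycoproteins (0.29), SLC7A5 (0.11) and TRIB3 (0.11).

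E2-BSA was compared with BSA, its carrier, and with untreated cells. The differences were small and mostly of the same sign. Against BSA, 30 of 34 genes were above 0, beside 49.3% of all genes, and 0 reached 1.5-fold, beside 0.339% higher and 0.662% lower of all genes. The medians were 0.070 in the ATF4 group and 0.12 in the ER group. SLC7A11 (0.45), PSAT1, an enzyme of serine synthesis (0.39), and CTH (0.38) were the highest, and all had been among the lowest on BSA minus untreated, with -0.30, -0.21 and -0.20. CALR (-0.29), DDIT3 (-0.027) and SLC7A5 (-0.0063) were the lowest.

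Against untreated cells 30 of 34 genes were again above 0 with E2-BSA, beside 52.1% of all genes. The medians were 0.070 in the ATF4 group and 0.056 in the ER group, where all genes had 0.0091. These comparisons share the E2-BSA array. VLDLR (0.25), EDEM1 (0.24) and PSAT1 (0.18) were the highest and CHAC1 (-0.074), ATF5 (-0.013) and DDIT3 (-0.012) the lowest, and none exceeded 0.30. Among the 7 arrays other than ethanol, E2-BSA held the highest value for 18 of 34 genes, 10 of the ATF4 group and 8 of the ER group, beside 22.8% of all genes. It held the lowest for 0 of 34, beside 4243 of all 19775 genes.

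EDEM1, which delivers misfolded glycoproteins to degradation, shows the pattern: it stood at 0.24 with E2-BSA and between -0.099 and 0.020 on the other arrays. The 6 genes at 2-fold with ethanol were split. CEBPB (0.12) and SLC7A11 (0.16) had their highest value outside ethanol with E2-BSA, while PPP1R15A, SESN2 and DDIT3 stood at 0.00 with E2-BSA and CHAC1 at -0.074. In related lists against BSA, 24 of 28 other ER folding and degradation genes were above 0 (median 0.13), as were 15 of 17 aminoacyl-tRNA synthetases (median 0.13), 13 of 20 other ATF4-linked genes (median 0.044) and 9 of 11 genes around initiation factor 2 (median 0.079). The heat shock list, of neither pathway, had 8 of 11 above 0 and a median of 0.16. Of all genes, 49.3% were above 0 against BSA, with a median of 0.00. Against untreated the medians of the related lists, in the order above, were 0.065, 0.067, 0.058, 0.049 and 0.038, where all genes had 0.0091. On the E2-BSA array the median value was 0.074 for the 34 members and 0.071 for the 6 line markers. It was -0.15 for the 5 immune cell markers and -0.0475 for the 8 fibroblast and endothelial markers. High values with E2-BSA were thus not particular to the members.

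Free and coupled estradiol, each at a stated 1e-06 M for 3 h, were compared directly. The coupled form carries albumin. With estradiol minus E2-BSA, 31 of 34 genes were below 0, beside 52.6% of all genes, and 0 reached 1.5-fold, beside 0.273% higher and 0.111% lower of all genes. The medians were -0.074 in the ATF4 group and -0.12 in the ER group. DDIT4 (-0.58) and VLDLR (-0.39) were the only ones past 0.30 in size, followed by EDEM1 (-0.27). CHAC1 (0.14), SDF2L1 (0.053) and SHMT2 (0.018) were above 0. With 1 array each, no interval can be given for these differences.

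G15 alone was compared with untreated cells. None of the 34 genes reached 1.5-fold, beside 0.364% higher and 0.167% lower of all genes (0.00506% higher at 2-fold), and the medians were -0.046 in the ATF4 group and -0.075 in the ER group. PPP1R15A (0.38), CALR (0.31) and VLDLR (0.23) were the highest. Both probe sets of PPP1R15A were higher, by 0.41 and 0.35, and against BSA it was higher by 0.30. HSP90B1 (-0.38), DNAJB9 (-0.36) and DDIT4 (-0.25) were the lowest. Of the 2 probe sets of HSP90B1, 1 differed by -0.64 and the other by -0.12. Among the 7 arrays other than ethanol, G15 held the lowest value for 10 of 34 genes, 6 of them of the ER group, beside 11.9% of all genes.

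The array with E2-BSA plus ICI was set against E2-BSA. No member reached 1.5-fold, beside 1.03% higher and 0.566% lower of all genes (0.0405% lower at 2-fold). The medians were -0.099 in the ATF4 group and -0.089 in the ER group, with 24 of 34 genes below 0, beside 46.8% of all genes. PSAT1 (-0.53), DNAJB9 (-0.44) and MTHFD2, a mitochondrial enzyme of the one-carbon cycle (-0.37), were the lowest. For each of these 3 the array with ICI held the lowest of all 8 values, and against untreated they differed by -0.35, -0.44 and -0.24. PHGDH, which precedes PSAT1 in serine synthesis, went the other way, at 0.14, as did CALR (0.18) and ATF5 (0.13). Against BSA the medians were 0.047 and 0.017, of opposite sign, and 13 of 34 genes were below 0, beside 46.1% of all genes.

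The array with E2-BSA plus G15 was set against each agent by itself. Relative to E2-BSA, 28 of 34 genes were below 0, beside 51.7% of all genes, and 0 reached 1.5-fold, beside 0.435% higher and 0.359% lower of all genes. The medians were -0.065 in the ATF4 group and -0.097 in the ER group. DDIT4 (-0.50), SLC7A11 (-0.45) and NUPR1 (-0.38) were the lowest, and CALR (0.32), SLC3A2 (0.055) and ASNS (0.049) the highest. Against BSA 17 of 34 genes were below 0, beside 51.2% of all genes, and the medians were 0.0025 and -0.017. The comparisons with ICI and with G15 share the E2-BSA array, which was itself high for most members.

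Against G15 alone, 16 of 34 genes were below 0 with E2-BSA plus G15, beside 54.9% of all genes. The medians were -0.049 in the ATF4 group and 0.062 in the ER group, and 0 genes reached 1.5-fold, beside 0.131% higher and 0.359% lower of all genes (0.00506% higher at 2-fold). HSP90B1 (0.41), CTH (0.36) and DNAJB9 (0.27) were the highest, and NUPR1 (-0.43), VLDLR (-0.30) and SDF2L1 (-0.25) the lowest. NUPR1 stood at -0.38 with E2-BSA plus G15, below all other arrays, which lay between -0.049 and 0.43.

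**Figure D4:**
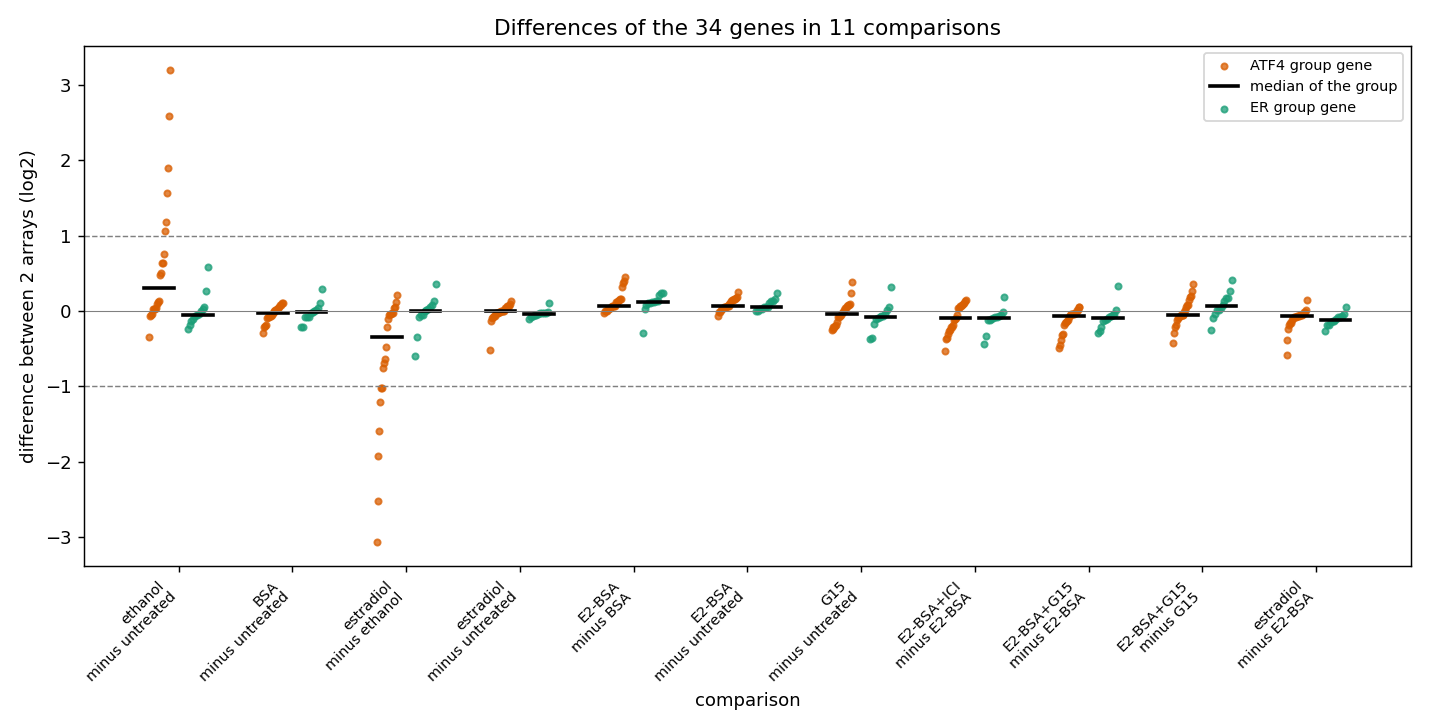
Differences (log2) of the 22 ATF4 group genes and 12 ER group genes in 11 comparisons, 1 array against 1 array, with the median of each group as a bar and 2-fold as dashed lines. Points pass 2-fold only where the ethanol array takes part, 6 in ethanol minus untreated and 7 in estradiol minus ethanol, and all of them belong to the ATF4 group.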

How the data were processed

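Total RNA of 8 SKBR3 cultures was labelled with biotin and hybridized to arrays of 54675 probe sets, per the labels' protocols. No source used here states the summarization, normalization, software or log base. The deposited values, read as log2, lie between -2.27 and 7.85. No probe set exceeds 0 on more than 4 of the 8 arrays or falls below it on more than 4, so values are centred per probe set. They were used as deposited.

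Of the probe sets, 62 controls were left out, 41091 carried 1 gene in the platform annotation, 1801 several and 11721 none. A gene was the mean of its probe sets with 1 gene, which gave 19775 genes, with symbols updated by gene identifier. Differences were taken with pandas 2.3.3 and numpy 2.4.6 on Python 3.11.15. With 1 array per condition nothing was tested, and the number of arrays limits the precision. The calculation was tested on simulated data. No filter on low values was possible.

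The 34 genes and all lists were chosen with earlier results of these data known. Values on every array are given for members with a range of at least 1 and for ATF4, XBP1 and HSPA5. In a comparison with none at 2-fold, the 3 highest and 3 lowest were named. List genes were named at 2-fold, or else the highest and lowest. Members named beyond this were chosen after their values were seen.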

Additional observations from a re-analysis of the deposited data

How the results depend on the processing

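Alternatives were quantile normalization, centring of each array on its median, the probe set with the largest SD, leaving out probe sets that can match several transcripts (ending in _x_at or _s_at), reading the values as natural logs, the BSA array as comparator, a threshold of 1.5-fold and, added after the data were seen, including 3 probe sets that name PHGDH or HSP90B1 beside another gene. A median counted as moved at a shift of 0.1. Of 142 group medians 134 moved by less. Some medians near 0 changed sign with the BSA array as comparator. The ER group median with ethanol went from -0.048 to 0.021, and the ATF4 group median with E2-BSA plus G15 from -0.065 to 0.0025. A difference of a single member counted as moved at a shift of 0.166, the SD of BSA minus untreated. Of these, 185 moved and 2108 did not. With quantile normalization, which averages the extremes of 1 array with those of the other 7, the ATF4 group median of ethanol minus untreated was 0.15, with 1 gene at 2-fold, PPP1R15A, and 0 on estradiol minus ethanol. Without the probe sets named above, 14 ATF4 group genes remained and the medians were 0.73 and -0.72. As natural logs they were 0.44 and -0.49, and with the largest SD -0.50 for estradiol minus ethanol. Against BSA, E2-BSA plus ICI had medians of 0.047 (ATF4 group) and 0.017 (ER group), above 0 where those against E2-BSA were below. For each gene this change of reference adds E2-BSA minus BSA, whose medians were 0.070 and 0.12. At 1.5-fold, 1 ER group gene, ERN1, passed in ethanol minus untreated and 1 in estradiol minus ethanol. No paired analysis was possible because each condition had 1 array.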

Other observations

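Single probe sets of 3 ER and translation genes were low on the BSA array, and these are named after their values were seen. EDEM3, an ER mannosidase, differed from untreated by -0.68 with BSA and by -0.73 with G15. Its 3 probe sets stood at -1.16, -0.29 and -0.28 with BSA, and the probe set lowest with BSA was also the lowest with G15. EPRS1, a tRNA synthetase, differed by -0.72 with BSA and by -0.32 with G15, and its lowest probe set stood at -1.34 with BSA and -0.56 with G15. A probe set that names HSP90B1 beside the microRNA gene MIR3652 was used above only where probe sets naming several genes were added. It stood at -1.02 with BSA and -0.41 with G15, and between -0.10 and 0.20 on the other 6 arrays. Another probe set that names both genes stood at -0.034 with BSA.

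ATF3 on the ethanol array rested on 2 of 3 probe sets, at 3.54 and 2.35, with the third at 0.00, so its mean of 1.96 lies well below that of its highest probe set.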
